A study of Mus musculus with 43 samples.

Results

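Replication-dependent histone genes encode the histones H1, H2A, H2B, H3 and H4 that package newly copied DNA. Here they were taken as the protein-coding genes of the mouse annotation GENCODE vM21 whose symbol starts with Hist1h, Hist2h, Hist3h or Hist4, and 67 of the 55401 genes in the expression tables met this rule. They comprised 6 H1, 18 H2A, 18 H2B, 12 H3 and 13 H4 genes. On the mouse genome build mm10, 54 of them lie on chromosome 13, 10 on chromosome 3, 2 on chromosome 11 and 1 on chromosome 6.

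The study deleted Prmt1, a protein arginine methyltransferase, from the male germline of C57BL/6J mice. Prmt1 lox/lox alleles were cut by Ddx4-CreERT2, a tamoxifen-dependent recombinase under the germ-cell promoter Ddx4, and the product is called Prmt1-dKO, written dKO here. Expression was measured at postnatal day 7 (P7) in 3 WT and 3 dKO bulk RNA-seq libraries of testis RNA, and in 2 WT and 2 dKO Smart-seq2 libraries of sorted EGFP-positive spermatogonia. The labels call the Smart-seq2 controls WT, while the study's methods describe the sorted controls as heterozygous Ddx4-GFP-CreERT2-Prmt1 +/lox. The labels name spermatogonia as the cell type of the bulk libraries, but Sertoli-cell markers summed to between 4817 and 5220 TPM in bulk WT and to between 254.3 and 282.7 TPM in Smart-seq2 WT. TPM is a level per transcript length, scaled to the same total in every library. Chromatin was profiled by CUT&Tag, in which a tagged transposase cuts DNA beside an antibody, in 33 peak lists for 7 marks at P7 and P14, from WT mice except for 2 dKO lists of H4R3me2s at P7. Library totals ranged from 12396345 to 18547103 expected counts. The labels do not say whether replicates came from separate animals, so p-values measure only the spread between these libraries.

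As background, these genes are transcribed in bursts during S phase, when DNA is copied. Most of their mRNAs end in a short stem-loop in place of a poly(A) tail, and the stem-loop-binding protein encoded by Slbp, with the U7 small nuclear ribonucleoprotein, directs the cut behind it. The coactivator encoded by Npat drives their promoters. The testis also uses its own linker, H2A and H2B genes, Hist1h1t, Hist1h2aa and Hist1h2ba. Bulk libraries were made from poly(A)-selected RNA and Smart-seq2 libraries were primed with oligo-dT, so mRNA without a poly(A) tail is under-represented in both. A level given here is the level of what these methods captured.

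The stem-loop was searched on the sense strand in the 150 bases behind each stop codon with the letters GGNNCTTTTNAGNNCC. It was found in 60 of the 67 genes, and in 63 of 21853 protein-coding genes, or 0.288%. It began between 21 and 58 bases behind the stop codon, with a median of 31, and it came in 6 versions, of which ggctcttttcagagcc occurred in 38 genes. The stretches printed here are those of genes with high levels or with a call in dKO, of Hist1h2ao for its identity with Hist1h2ap, and of an H4 gene with another version of the stem. Each is read on the gene's own strand of GRCm38, with the stem-loop in capitals and the 12 bases before it in lower case.
Hist1h2ap, H2A, chr13:21833029-21833056, minus strand: aaaaaaaaaaaaGGCTCTTTTCAGAGCC
Hist1h2ao, H2A, chr13:21810886-21810913, plus strand: aaaaaaaaaaaaGGCTCTTTTCAGAGCC
Hist1h2aa, H2A, chr13:23934879-23934906, plus strand: ttaaaacaaaaaGGCTCTTTTCAGAGCC
Hist1h2ba, H2B, chr13:23933730-23933757, minus strand: aacaaacccaaaGGCTCTTTTAAGAGCC
Hist1h1c, H1, chr13:23739500-23739527, plus strand: aacaatccaaaaGGCTCTTTTCAGAGCC
Hist1h1a, H1, chr13:23764380-23764407, plus strand: aaataacccaacGGCTCTTTTCAGAGCC
Hist1h1e, H1, chr13:23621782-23621809, minus strand: caacaacccaaaGGCTCTTTTCAGAGCC
Hist2h2aa2, H2A, chr3:96239784-96239811, minus strand: agctcctaaaaaGGCTCTTTTCAGAGCC
Hist3h2a, H2A, chr11:58955160-58955187, plus strand: acagacaccaaaGGCTCTTTTCAGAGCC
Hist2h3c2, H3, chr3:96238485-96238512, minus strand: attccccacaaaGGCTCTTTTCAGAGCC
Hist1h2bc, H2B, chr13:23684635-23684662, plus strand: gcgaattccaaaGGCTCTTTTCAGAGCC
Hist1h4d, H4, chr13:23581938-23581965, plus strand: ccaaaaaccaaaGGCCCTTTTCAGGGCC
All lie behind the coding sequence, in or next to the 3' untranslated end. Hist1h2ap and Hist1h2ao, whose coding sequences are identical, were the 2 genes with a run of 10 or more A between stop codon and stem-loop, and in both it was 12 A directly before the stem. Hist2h2be has no match to these letters in this window.

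The 67 genes were a small share of the bulk libraries and a larger one of the sorted cells. In bulk WT their TPM summed to 334.0, 325.7 and 340.1, and in Smart-seq2 WT to 5123 and 4648, 14.7-fold more. A single H2A gene accounted for much of this. Hist1h2ap held 0, 20 and 8 counts in the bulk WT libraries and 14076 and 14100 in the Smart-seq2 WT libraries, where it made up 60.4% of the counts of all 67 genes. Without it the WT sum was 4.58-fold higher in Smart-seq2. The identical gene Hist1h2ao held 11, 11 and 0 counts in bulk WT and 5 and 0 in Smart-seq2 WT. Since a read in the shared coding sequence fits either gene, the pair is better read as a sum, which was 11, 31 and 8 against 14081 and 14100 counts. The A-run printed above lies in both genes, and its part in the level of Hist1h2ap was not tested.

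Of these genes, 47 had a mean of at least 1 TPM in bulk WT and 46 in Smart-seq2 WT, while 1 and 11 had no count at all. The test of Smart-seq2 WT against bulk WT (edgeR, quasi-likelihood, Benjamini-Hochberg adjusted p under 0.05 and a change of at least 2-fold) covered 45 of the 67. It called 28 higher and 3 lower in Smart-seq2, where it called 18.7% and 29.8% of all genes tested. A gene that passed the count filter only through Smart-seq2 had to differ, so these counts are a description. Without Smart-seq2 WT replicate 1 or 2 it called 12 and 6 lower (45.9% and 42.1% of all genes). Cell population and library method cannot be told apart in this comparison. Hist1h2aa and Hist1h2ba, the testis-specific H2A and H2B genes, had almost no counts in bulk. They passed the count filter only through Smart-seq2, so ratios with counting intervals are given for them and no test. Hist1h2aa held 1, 1 and 1 counts in bulk WT and 1185 and 974 in Smart-seq2 WT, a ratio of 951 per library total (95% exact binomial interval 325 to 4620, counting error only). Hist1h2ba held 0, 1 and 1 counts against 402 and 435, a ratio of 553 (interval 153 to 4570). Hist1h1t, the testis linker histone gene, held 1, 0 and 0 counts in bulk WT and 26 and 0 in Smart-seq2 WT, too few for the test. In the opposite direction, the H2B gene Hist2h2be held 186, 198 and 173 counts in bulk WT and 0 and 0 in Smart-seq2 WT. It was at least 70.3-fold higher in bulk, taking 3 counts per library as the limit that a count of 0 allows.

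**Figure D1:**
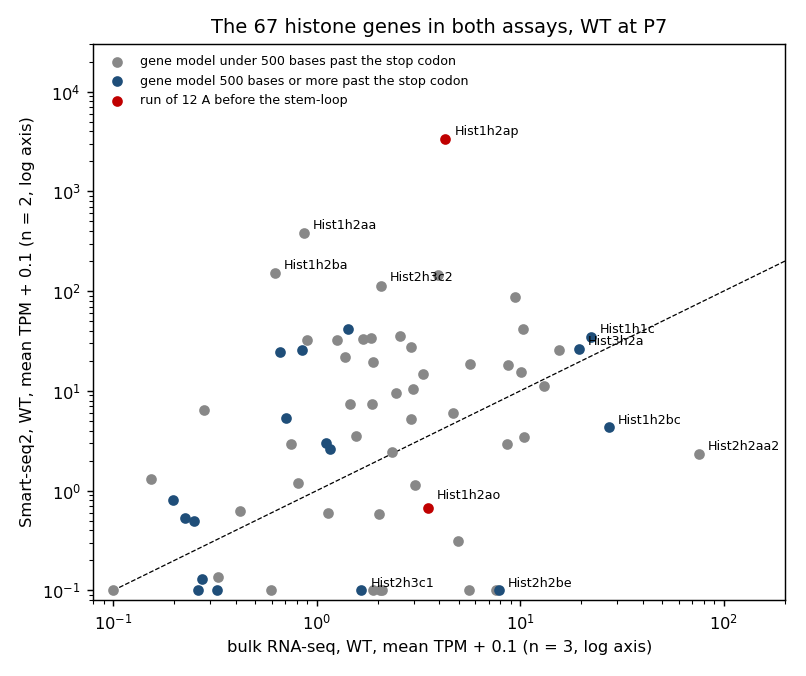
Mean TPM of each of the 67 genes in bulk WT (x axis, n = 3) and Smart-seq2 WT (y axis, n = 2), both plotted as TPM plus 0.1 on logarithmic axes, with genes that have a long A-run before the stem-loop in red and genes whose model reaches 500 bases or more past the stop codon in blue. Hist1h2ap stands apart at a mean of 3379 TPM in Smart-seq2 against 4.19 TPM in bulk, and Hist2h2aa2 has the highest mean in bulk, 75.2 TPM.

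The genes with long gene models took a larger share of counts than of TPM. In bulk WT the 17 genes whose model reaches 500 bases or more past the stop codon held 65.8% of the counts of all 67, which grow with length, but 25.2% of their TPM, and 9 of the 17 were under 1 TPM. In Smart-seq2 WT they held 13.9% of the counts and 3.47% of the TPM, or 35.1% and 11.2% with Hist1h2ap set aside. Among them, Hist3h2a, an H2A gene, was the first in bulk by counts with 340, 372 and 403 counts, 20.2% of the total. It overlaps Trim17 on the same strand, so its reads may be shared. The length limit was chosen after the values were seen and carries no test. The stem-loop of Hist1h2bc lies 34 bases behind the stop codon, while its model runs 8296 bases past it.

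In dKO the summed level was lower in both assays. In bulk it was 333.3 ± 7.21 TPM in WT (SD, n = 3) and 188.5, 230.1 and 158.5 TPM in the dKO libraries, a mean of 57.7% of WT. In Smart-seq2 it went from 5123 and 4648 to 2490 and 2110 TPM, 47.1% of WT. The genotypes did not overlap in either assay. Counted as a share of all library counts the bulk sum was 76.4% of WT, and after TMM scaling 73.3% of WT in bulk and 60.9% in Smart-seq2, all without overlap. In bulk testis, fewer cells that express a gene and less RNA per cell cannot be told apart.

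By class, the order differed between the assays. In bulk the H3 genes were lowest relative to WT, at 44.96, 35.51 and 38.45 TPM in WT and 12.69, 22.52 and 14.74 TPM in dKO, or 42.0% of WT. H4 stood at 46.6%, H2B at 55.5%, H1 at 64.9% and H2A at 65.6%. In Smart-seq2 the H2B genes were lowest, at 357.9 and 272.2 TPM in WT and 99.98 and 81.76 TPM in dKO, or 28.8% of WT. H1 stood at 43.3%, H2A at 45.4%, H4 at 58.6% and H3 at 83.7%. In TPM no class overlapped between genotypes. The bulk H4 sum moved most with scaling, to 73.1% of WT as a share of library counts and 70.2% with TMM. On TMM-scaled counts H1, H2A and H4 overlapped in bulk and H3 overlapped in Smart-seq2, while H2B and H3 in bulk and the other 4 classes in Smart-seq2 remained apart.

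**Figure D2:**
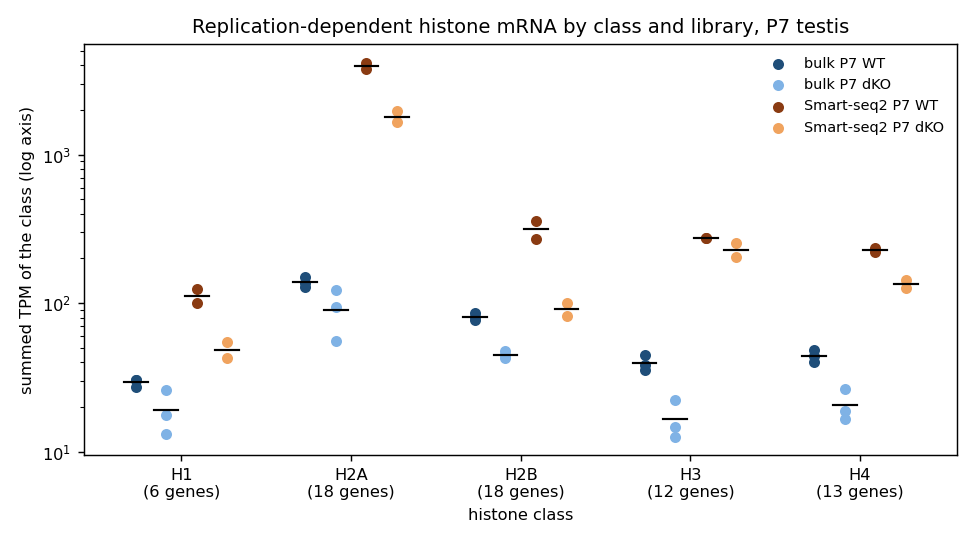
Summed TPM of each histone class (y axis, logarithmic) in every library, by assay and genotype, with 1 point per library. In bulk the dKO points of all 5 classes lie below the WT points, and in Smart-seq2 the H3 points lie closest together, between 203.8 and 273.4 TPM.

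Gene by gene, 55 of the 67 had a lower mean share of library counts in bulk dKO, 11 a higher one and 1 had no count, where 37.9% of all genes with a count were lower. All 12 H3 genes were among the lower ones. In Smart-seq2, 41 were lower and 21 higher, with 46.5% of all genes with a count lower, and 8 of the 12 H3 genes were higher and 3 lower. These counts carry no test, because near-identical genes share reads. The number with a mean of at least 1 TPM was 47 in bulk WT and 27 in bulk dKO, and 46 and 45 in Smart-seq2. Of all protein-coding genes 62.6% and 63.6% reached it in bulk, and 53.7% and 57.1% in Smart-seq2.

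Few single genes passed the test in bulk, where only 19 of the 67 had enough counts for edgeR. Hist1h1a, a linker histone H1 gene, held 25, 26 and 31 counts in WT and 8, 10 and 9 in dKO. Every dKO library was below every WT library. It fell by 1.42 ± 0.34 on the log2 scale (SE; edgeR quasi-likelihood, Benjamini-Hochberg adjusted p = 0.0209) and was the single gene called, where 1.78% of all genes tested were called lower and 5.32% higher. DESeq2 called the same gene alone of 53 tested (log2 change -1.45, adjusted p = 0.0461), with 1.37% of all genes called lower and 6.34% higher. Hist1h1a passed the edgeR count filter through the WT libraries, where it is high, so that call is a description, and without the filter its edgeR adjusted p was 0.0244. With WT replicate 1, 2 or 3 or dKO replicate 1 or 3 left out in turn, the call was lost, at edgeR adjusted p from 0.0511 to 0.0916. It held without dKO replicate 2, when 7 of the genes were called, 6 of them lower, where 2.36% of all genes were called lower and 6.18% higher. The log2 change of Hist1h1a ran from -1.58 to -1.33 over the libraries left out. Its call was also lost with replicate number as a block.

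Hist1h2bc, an H2B gene, fell by less than 2-fold. Its counts were 259, 221 and 262 in WT and 119, 138 and 166 in dKO, which do not overlap, and its log2 change was -0.65 ± 0.16 (SE; edgeR adjusted p = 0.0242). Of the 19 genes tested in bulk, 7 had every dKO library below every WT library on TMM-scaled counts, where 19.9% of all genes did. The opposite held for 1 of them, where 20.9% of all genes did. Other abundant genes did not pass. Hist1h1c, the most abundant H1 gene in bulk, held 296, 277 and 302 counts in WT and 174, 141 and 339 in dKO, where dKO replicate 3 exceeded all WT libraries. Hist3h2a held 212, 279 and 196 counts in dKO. As counts per library total these overlapped WT, at 15.9, 22.5 and 12.5 against 22.4, 22.4 and 24.8 CPM, with a log2 change of -0.50 ± 0.20 (SE; edgeR adjusted p = 0.111). Hist2h2aa2, an H2A gene, held 170, 195 and 251 counts in WT and 157, 223 and 114 in dKO, which overlap.

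In the sorted cells the testis-specific H2A and H2B genes were called lower in dKO by DESeq2 and not by edgeR. Hist1h2aa held 1185 and 974 counts in WT and 233 and 242 in dKO. Hist1h2ba held 402 and 435 counts in WT and 24 and 50 in dKO. For both genes the dKO libraries lay far below the WT libraries. DESeq2 gave Hist1h2aa a log2 change of -1.90 ± 0.37 (SE; adjusted p = 1.53e-05) and Hist1h2ba one of -3.21 ± 0.75 (SE; adjusted p = 0.000512). The edgeR adjusted p-values were 0.0774 and 0.0988, with log2 changes of -1.86 and -3.16. Of their 50-base coding words, 2.4% in Hist1h2aa and 37.7% in Hist1h2ba occur in another of the 67 genes, and how reads were placed was not tested. Their starts lie 306 bases apart, facing away from each other.

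Among the linker histone genes, 1 was called in the sorted cells, by DESeq2 alone. Hist1h1e held 830 and 520 counts in WT and 240 and 150 in dKO, a log2 change of -1.52 by DESeq2 (adjusted p = 0.0428) that edgeR did not call (adjusted p = 0.194). Its model overlaps that of Hist1h2be on the same strand. Hist1h1c went from 849 and 592 to 259 and 259 counts and Hist1h1b from 223 and 308 to 50 and 116, and neither passed (edgeR adjusted p = 0.201 and 0.479, and DESeq2 adjusted p = 0.0533 and 0.3). Hist1h1a, the gene called in bulk, held 177 and 121 counts in WT and 116 and 119 in dKO, a log2 change of -0.01 ± 0.86 (SE; edgeR adjusted p = 0.996). Hist1h2ap went from 14076 and 14100 to 6789 and 5212 counts, under 2-fold on the fitted scale (log2 change -0.96, DESeq2 adjusted p = 9.78e-08, and edgeR adjusted p = 0.0774).

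The edgeR estimate of the biological coefficient of variation was 0.155 in bulk and 0.767 in Smart-seq2. It was 0.089 in bulk without dKO replicate 2, and in Smart-seq2 0.341 and 0.342 without WT replicate 1 or 2 and 1.136 and 1.135 without dKO replicate 1 or 2. At this spread a difference that did not pass in Smart-seq2 is not shown to be absent. In Smart-seq2 edgeR called none of the 49 genes tested, and 0.0% of all genes in either direction. At an unadjusted p under 0.05 and 2-fold it gave 5 lower and 3 higher of these genes, where 4.12% and 13.8% of all genes were lower and higher. The 3 higher were Hist1h4k, Hist2h2be and Hist1h3f, which passed the count filter through the dKO libraries, where they are high. Hist1h2bn, among the 5 lower, passed it through the WT libraries, so these counts are a description. DESeq2 called 3 of 47 lower (Hist1h2aa, Hist1h2ba and Hist1h1e) and none higher, with 3.93% and 7.33% of all genes called. Of the 49 genes, 20 had both dKO libraries below both WT libraries on TMM-scaled counts and 8 above, where the shares of all genes were 20.3% and 36.3%. Some of them passed the count filter through 1 genotype alone, so these counts are also a description. Hist2h2ac, for example, held 27 and 43 counts in WT and 3 and 0 in dKO. With 2 libraries a group, 1 library can decide the outcome. Without WT replicate 1 edgeR called 25 of the genes, 11 lower and 14 higher, where 12% and 29.5% of all genes were called. Without WT replicate 2 it called 11, 10 of them lower, where 11.2% of all genes were called lower and 22.5% higher. These fits assume that the remaining WT library varies like the dKO libraries.

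**Figure D3:**
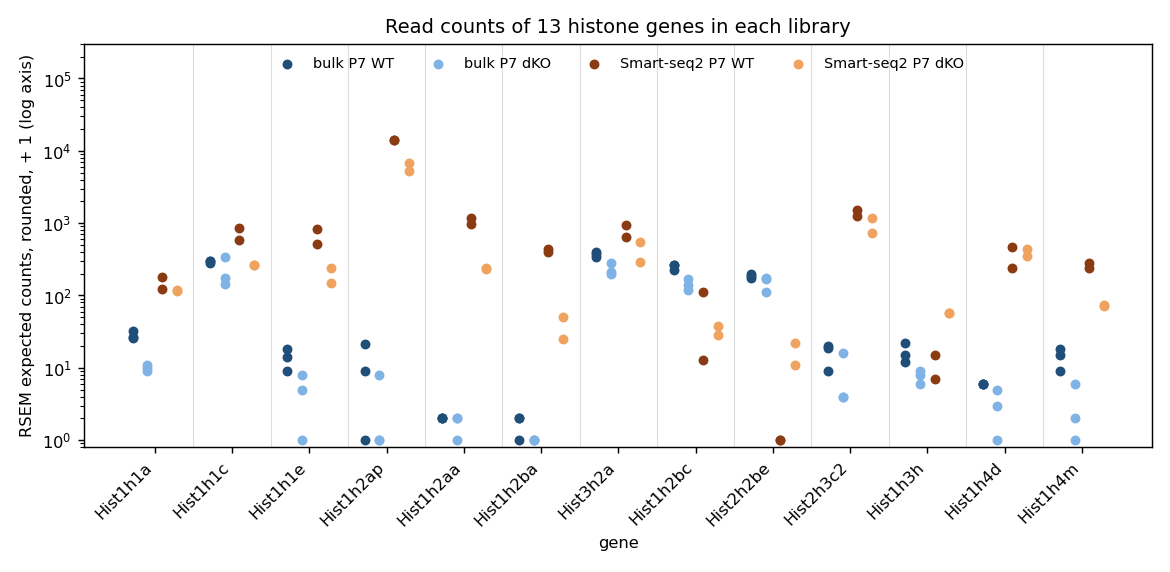
Expected counts plus 1 in each library (y axis, logarithmic) for 13 of the genes described in the text, by assay and genotype, with 1 point per library. Hist1h2aa and Hist1h2ba have at most 1 count in every bulk library and lie lower in dKO than in WT in Smart-seq2.

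Some genes had higher counts in dKO in the sorted cells and lower counts in dKO in bulk. Hist1h3h held 21, 11 and 14 counts in bulk WT and 5, 7 and 8 in bulk dKO, but 14 and 6 in Smart-seq2 WT and 56 and 56 in Smart-seq2 dKO. Hist2h2be, absent from Smart-seq2 WT, held 10 and 21 counts in Smart-seq2 dKO, at least 5.86-fold more than 3 counts per library. The test of the difference between the genotype effects of both assays (edgeR, adjusted p under 0.05) covered 53 of the genes. It called 6 with a higher effect in Smart-seq2 and none with a lower one, where 14.7% and 4.24% of all genes were called, so the share was not above that of all genes. Hist1h4k, Hist1h3b and Hist1h3f passed the count filter through the Smart-seq2 dKO libraries, where they are high, and their calls carry no weight. At an unadjusted p under 0.05 none was lower either, and DESeq2 gave 1 lower at that level and none after adjustment. Leaving out Smart-seq2 WT replicate 1 or 2 or dKO replicate 1 changed the number called to 17, 10 and 3. The shares of all genes called with a higher effect moved with it, to 30.2%, 24.6% and 10.5%. They were Hist2h2be, Hist1h4k and the H3 genes Hist1h3h, Hist1h3c, Hist1h3b and Hist1h3f. Genes with at least 1 count numbered 17106 and 15587 in the Smart-seq2 WT libraries and 21404 and 20194 in the dKO libraries, and the part of this difference in the result was not tested.

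The H3 and H4 genes with the highest mean TPM did not pass the test. Hist2h3c2, an H3 gene, held 1519 and 1266 counts in Smart-seq2 WT and 1170 and 721 in dKO (log2 change -0.24 ± 0.31, SE; edgeR adjusted p = 0.753). Hist2h3b held 544 and 702 counts against 436 and 353 (edgeR adjusted p = 0.721). In bulk WT these H3 genes held only 18, 8 and 19 and 4, 3 and 20 counts. Hist1h4m, an H4 gene, held 240 and 277 counts in Smart-seq2 WT against 70 and 72 in dKO, while its copy Hist1h4n held 69 and 118 against 143 and 58. Summed over this pair, counts were 309 and 395 in WT and 213 and 130 in dKO, apart but less so than for Hist1h4m alone. Hist1h2bj, an H2B gene, held 175 and 18 counts in WT and 130 and 38 in dKO, a spread within each genotype larger than the difference between their means. Hist1h2ae, an H2A gene, held 130 and 199 against 244 and 158, and the genotypes overlapped.

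How reads were divided among copies may bear on the single-gene values of genes that share sequence. In 49 of the 67 genes more than 50% of the 50-base words of the coding sequence occur in another of the genes, in 8 the whole coding sequence is identical to that of another, and 7 share none. In the pair Hist2h2aa1 and Hist2h2aa2, Hist2h2aa2 held 170, 195 and 251 counts in bulk WT and 21 and 0 in Smart-seq2 WT, and Hist2h2aa1 held 0, 4 and 8 and then 235 and 133. Their sum overlapped between the assays in counts, at 170, 199 and 259 against 256 and 133, and not in TPM, at 66.8, 71.8 and 90.6 against 46.2 and 22.6. No reads were assigned anew here. Antisense or overlapping genes also lie at several of the loci, and whether counting used strand is not given in the sources used here.

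The genes around the histone pathway were taken from 4 lists and described by counts. Of 17 genes for histone gene transcription and mRNA processing, 11 replacement histone genes, 15 histone chaperone genes and 19 S-phase genes, edgeR called none at 2-fold in either assay. At an unadjusted p under 0.05 and any fold, 5, 3, 5 and 15 of them were lower in bulk and none higher, and in Smart-seq2 4, 1, 2 and 6 were lower and 1, 2, 0 and 1 higher. Of all genes, 15.7% were lower and 18.2% higher at that level in bulk, and 7.34% and 16.4% in Smart-seq2. Of the 19 S-phase genes, 13 were lower in bulk at an edgeR adjusted p under 0.05 with no limit on the fold, where 8.51% of all genes were lower and 10.6% higher. Median log2 changes in bulk were -0.10, -0.15, -0.14 and -0.52, beside 0.02 over all genes tested, and in Smart-seq2 -0.06, -0.14, 0.10 and -0.14, beside 0.15. Slbp went from 144.9, 145.6 and 141.7 TPM in bulk WT to 109.7, 81.95 and 109.2 TPM in dKO, a fall of less than 2-fold (log2 change -0.39 ± 0.10, SE; edgeR adjusted p = 0.0257). In Smart-seq2 Slbp stood at 248.6 and 156 TPM in WT and 211.6 and 258.8 TPM in dKO, which overlap. Npat stood at 21.3, 22.8 and 17.2 TPM in bulk WT and 19.3, 10.4 and 18.4 TPM in bulk dKO (edgeR adjusted p = 0.417). The S-phase genes summed to between 1517 and 1623 TPM in bulk WT and between 927.5 and 1072 TPM in bulk dKO, and to 2157 and 2277 against 1557 and 1572 TPM in Smart-seq2. Their sums were lower in dKO in both assays, as were the histone sums, and their part in the histone values was not tested. The lower sums were not particular to them. The sums of the replacement histones and of the genes for histone gene transcription and mRNA processing were also lower without overlap in both assays. Those of the chaperones were lower in bulk and overlapped in Smart-seq2, at 1553 to 1914 TPM in WT and 1444 to 1561 TPM in dKO. In Smart-seq2 DESeq2 called 3 S-phase genes lower and, among the replacement histones, H2afy and H2afy2 higher and H1fx lower, where it called 3.93% of all genes lower and 7.33% higher.

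The targeted gene and the cell markers were read beside these values. Prmt1 stood at 651.9, 603.5 and 637.8 TPM in bulk WT and 409.8, 433.0 and 402.2 TPM in bulk dKO (log2 change -0.49, edgeR adjusted p = 0.0334), and at 349.8 and 239.1 against 178.8 and 151 TPM in Smart-seq2 (log2 change -0.88, edgeR adjusted p = 0.133). Gene-level values include reads outside the deleted exons. In bulk, 6 Leydig-cell markers summed to between 624.0 and 723.7 TPM in WT and between 164.2 and 184.7 TPM in dKO, 5 peritubular markers to between 826.9 and 899.9 against between 290.4 and 507.1 TPM, and 9 Sertoli markers to between 3213 and 3552 TPM in dKO. In Smart-seq2 dKO the Sertoli markers summed to 342.9 and 471.6 TPM, above the WT libraries, and DESeq2 called 1 of them, Clu, higher. Without Clu the other 8 overlapped, at 164.5 and 144.5 TPM in WT and 126.7 and 197.6 TPM in dKO. The 10 germ-cell markers overlapped in bulk, at 797.8 to 954.9 TPM in WT and 710.8 to 913.1 TPM in dKO. In Smart-seq2 they summed to 2606 and 2625 TPM in WT and 1745 and 1838 TPM in dKO, a gap carried by Tex101. Without Tex101 the other 9 summed to 1048.4 and 1014.8 TPM in WT and 1094.6 and 1210.6 TPM in dKO. In Smart-seq2, 7 macrophage markers summed to 0 and 5.02 TPM in WT and to 33.5 and 34.7 TPM in dKO. The part of these shifts in the histone values was not tested.

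Promoters were read from the peak lists of the 7 marks. A gene counted as marked when at least 2 lists of a group held a peak summit within 1000 bp of an annotated start, and the share of all 21951 protein-coding genes marked in the same way stands beside each count. The windows of 51 of the 67 genes overlap that of another, so a summit may be counted for a pair of them. At P7 the promoter mark H3K4me3 lay at 51 of the 67 genes (76.1%, and 58.9% of all genes) and the acetylation mark H3K27ac at 24 (35.8%, and 27.5% of all). For H3K27ac the direction against all genes turned at a q of at most 0.01 (1.49% of the 67, and 9.9% of all) and with summits within 500 bp (16.4%, and 23.3%). The 5 arginine methylation marks lay at few. H4R3me2s was found at 9 (13.7% of all genes), H3R8me2a at 8 (6.89% of all, and no gene at a q of at most 0.01, where 0.797% of all passed), H4R3me2a at 3 (9.84% of all), H4R3me1 at 2 (6.66% of all) and H3R2me2a at 1 (6.77% of all). In single lists the last 3 were not below all genes throughout. H3R2me2a was at 22.4% and 19.4% of the 67 and 17.5% and 16.7% of all genes, and H4R3me1 at 23.9% and 13.4% against 18.5% and 14.8%. H4R3me2a was at 11.9%, 22.4% and 4.48% of the 67 and 13.5%, 14.3% and 14.5% of all genes. In dKO testis at P7 H4R3me2s was found at none of the 67 in both lists, where 6.31% of all genes were marked, and at 10 and 8 genes in the single lists (20.5% and 16.2% of all genes). The single WT lists held it at 16 and 23 genes (26.5% and 26.7% of all), so the share of all genes was also lower in dKO. The lists hold 19981 and 36145 peaks in WT and 33941 and 28221 in dKO, and this difference was not tested.

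At P14 each mark lay at more of these genes, and at more genes overall. H3K27ac was found at 56 (83.6%, and 45.2% of all genes), H3K4me3 at 53 (79.1%, and 60.7% of all) and H3R8me2a at 42 (62.7%, and 28.1% of all). H4R3me2a and H3R2me2a were found at 38 each (56.7%, and 41.1% and 44.4% of all), H4R3me2s at 33 (49.3%, and 29.4% of all) and H4R3me1 at 18 (26.9%, and 25.3% of all). For H4R3me2s the rule asked for 2 of 3 lists at P14 and 2 of 2 at P7, and any 2 of the P14 lists gave 17 to 23 genes. At a q of at most 0.01 the direction against all genes turned for H4R3me2a (13.4% of the 67, and 17.9% of all), H3R2me2a (14.9%, and 25.6%) and H4R3me2s (0%, and 6.18%). The lists themselves were longer, at 39597 to 44836 peaks for H4R3me2a at P14 against 16995 to 18722 at P7. With all lists of a mark limited to the length of the shortest, H4R3me2a at P14 was found at 19 genes (27.3% of all) and H3R2me2a at 10 (27% of all). No test was made of these shares, since neighbouring genes share peaks. Titles and cell-type labels of the P14 lists disagree on whether the cells are spermatogonia or spermatocytes, and peak names inside the H4R3me2s lists labelled P14 carry another day number.

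**Figure D4:**
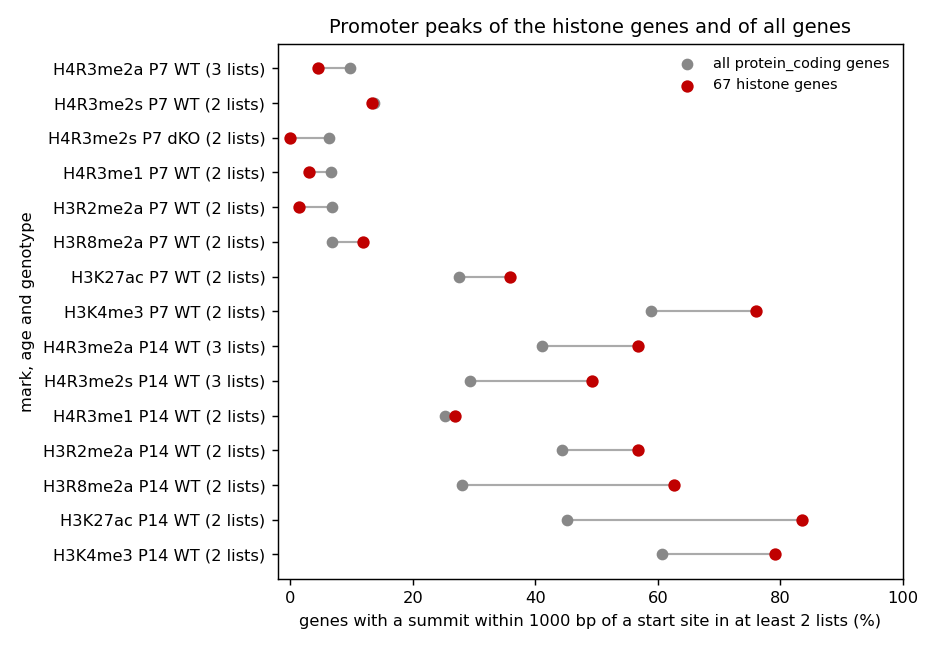
Share of the 67 genes (red points) and of all 21951 protein-coding genes (grey points) with a promoter peak, in percent, by mark and age. H3R8me2a at P14 shows the widest gap of the arginine marks, 62.7% against 28.1%, while at P7 H4R3me2a, H4R3me1 and H3R2me2a lie below the share of all genes under the rule of 2 lists, which did not hold in every single list.

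The marks were unevenly spread over the genes. At P7, 3 genes carried 4 of the 7 marks (4.32% of all protein-coding genes), Hist3h2a, Hist2h3c2 and Hist2h2aa2, of which the latter pair lie near enough to share summits. At P7, 15 carried none (39.3% of all protein-coding genes): Hist3h2ba, Hist1h3h, Hist1h3i, Hist1h4m, Hist1h2af, Hist1h4f, Hist1h1d, Hist1h3d, Hist1h4d, Hist1h2be, Hist1h1t, Hist1h4b, Hist1h1a, Hist1h2ba and Hist1h2aa. At P14, 10 genes carried all 7 marks, 14.9% and close to the 13.9% of all genes, and 5 carried none (33.3% of all), and Hist1h1d had no summit in any of the 33 lists. The counts of expressed genes with and without H3K4me3 were compared with no test. Of the 51 genes with H3K4me3 at P7, 38 had at least 1 TPM in bulk WT and 35 in Smart-seq2 WT, and of the 16 without it 9 and 11 did. Where H3K4me3 was present at P7 the summit lay a median of 162 bases downstream of the start, and peaks at these genes had median widths of 575 and 413 bp in the 2 lists, against 853 and 793 bp over all peaks of those lists.

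**Figure D5:**
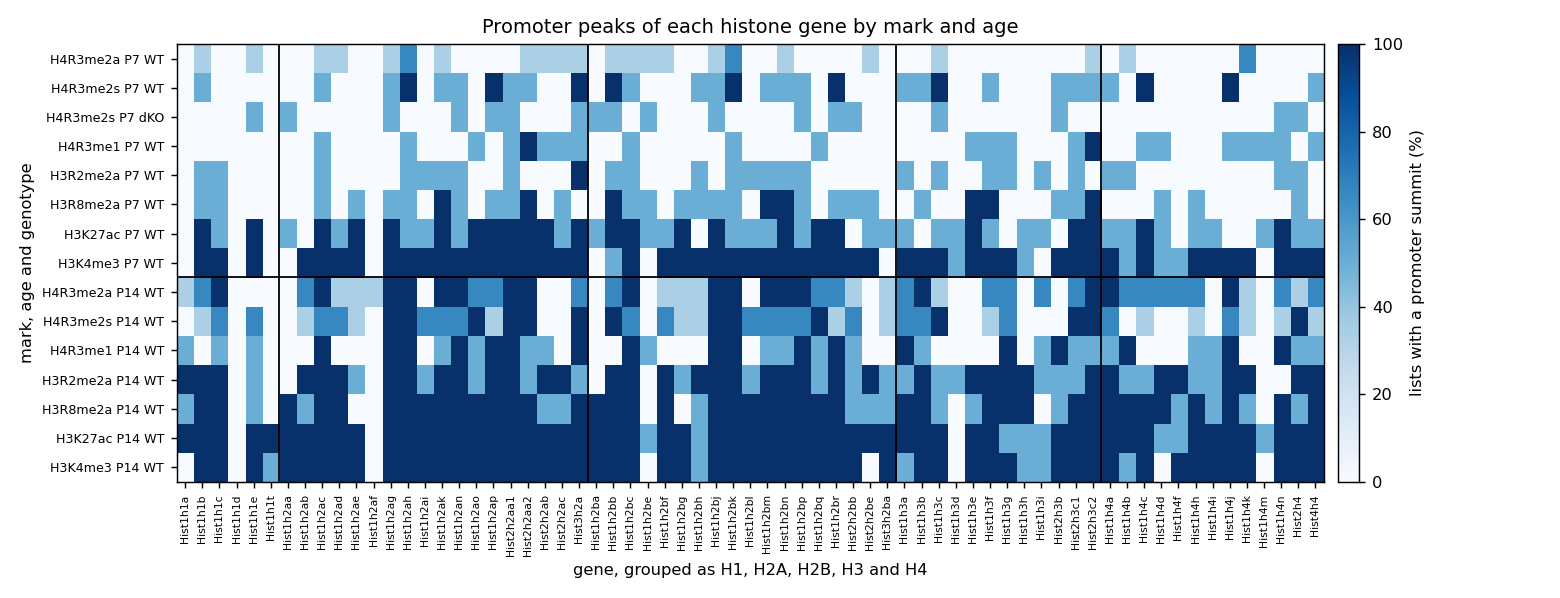
Percent of the lists of each group (rows, 15 groups of mark, age and genotype) that hold a summit at each of the 67 genes (columns, by class). H3K4me3 and H3K27ac rows are filled for most genes at P14, and the column of Hist1h1d is empty.

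The testis-specific pair had summits in more lists at P14 than at P7, and for H3R8me2a and H3K27ac so did many others of the 67 genes. At Hist1h2aa and Hist1h2ba, H3K4me3 had a summit in 0 of 2 lists at P7 and in 2 of 2 at P14, H3R8me2a in 0 and then 2, and H3K27ac in 1 and then 2. Marked at P14 and not at P7 were 5 of the 67 for H3K4me3 (3.44% of all genes), 35 for H3R8me2a (22.2%) and 32 for H3K27ac (18.8%). Because their starts lie 306 bases apart, a summit near one counts for the other. The testis linker gene Hist1h1t had no summit of any mark at P7, and H3K27ac in 2 of 2 and H3K4me3 in 1 of 2 lists at P14.

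Promoter sequences were searched for 3 motifs, the TATA box as TATAAA, the CCAAT box as CCAAT and the octamer as ATTTGCAT, on both strands of the 250 bases before the start, in RefSeq promoters of GRCm38.p6. Of the 67 genes 61 were matched. TATAAA was found in 45.9% of them and in 12.4% of all 32851 promoters, CCAAT in 82.0% and 33.8%, and the octamer in 21.3% and 1.6%. The matches differed by class. CCAAT was in all 18 H2A and all 16 H2B promoters matched but in 3 of 12 H4 promoters. The octamer was in 7 H2A and 6 H2B promoters and in none of the 5 H1, 10 H3 and 12 H4 promoters. The 250 bases before the start of Hist1h2aa, most of the stretch toward Hist1h2ba, are printed because the results return to this pair, and they hold all 3 motifs. They are read in the direction of Hist1h2aa on the plus strand, with every motif match of either strand in capitals.
Hist1h2aa, chr13:23934187-23934436, plus strand: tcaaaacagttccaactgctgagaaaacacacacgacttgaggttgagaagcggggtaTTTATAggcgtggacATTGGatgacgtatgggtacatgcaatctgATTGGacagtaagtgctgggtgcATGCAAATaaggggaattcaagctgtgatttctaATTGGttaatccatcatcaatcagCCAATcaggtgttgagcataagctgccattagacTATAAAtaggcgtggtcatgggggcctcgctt
A match is a description of letters and not of a bound factor. The 6 promoters without a RefSeq match were not searched.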

How the data were processed

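The members and gene lists were chosen with earlier results of these data known. The authors trimmed reads with fastp 0.23.2, aligned them with STAR and deposited RSEM tables holding expected counts, TPM and FPKM per gene; the sources used here do not give the RSEM version or annotation. For each CUT&Tag sample the authors deposited a MACS2 2.1.0 peak list on mm10 with the summit, a fold enrichment ratio, a −log10 p-value and a −log10 q-value. Their threshold was p 0.005, or q 0.05 for H3K4me3, so weak peaks are listed. The CUT&Tag aligner and controls are likewise not stated there.

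Members were found by gene identifier in GENCODE vM21 (55141 of 55401 identifiers matched, 260 did not). Rounded expected counts entered edgeR 4.0.16 (filterByExpr, TMM, quasi-likelihood) in R 4.3.3, within each assay, over all genes. DESeq2 1.42.0 was the alternative; its adjusted p of NA stayed NA. A call needed an adjusted p (Benjamini-Hochberg) under 0.05 and 2-fold, and for the difference between assays an adjusted p alone. Summed levels and peaks were described without a test. The steps were tested on simulated data.

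Named genes were the 2 members of each class with the highest mean TPM, the testis-specific members, members called by either tool, the members with the largest and smallest change in each assay among those with a mean of 50 counts or more, Slbp, Npat, Prmt1, and the members with the most marks or none at P7. Hist3h2a's levels, Hist1h2ao, Hist2h2aa1 and the printed stem-loops were added after values were seen. Counting error alone limits a count of 0 to 3 counts per library. Alternatives were another normalization, no filter, each library left out, other windows, a q of 0.01, equal list lengths and, chosen after seeing the data, the sums without Hist1h2ap. Identifiers of 2 members differed from vM21 in version only.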

Additional observations from a re-analysis of the deposited data

Results flagged for a closer look

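In 6 of the 53 genes tested (11.3%) the effect of the genotype differed between the assays by the edgeR test of that difference (Benjamini-Hochberg adjusted p). The dKO effect was higher in Smart-seq2 in each. Of all genes, 14.7% were called higher and 4.24% lower, so the share of these genes was not above that of all genes. The difference on the log2 scale was 7.21 for Hist2h2be (adjusted p = 0.00152), 3.92 for Hist1h3h (adjusted p = 0.011), 8.50 for Hist1h4k, 8.07 for Hist1h3c (adjusted p = 0.0135), 6.75 for Hist1h3f and 5.78 for Hist1h3b. Hist1h4k, Hist1h3b and Hist1h3f passed the count filter through the Smart-seq2 dKO libraries, where they are high, so their p-values are not given. Hist2h2be, Hist1h4k and Hist1h3c held 0 counts in both Smart-seq2 WT libraries, so their fitted differences depend on the prior count. Against 3 counts per library they were at least 5.86-fold, 6.05-fold and 7.62-fold higher in Smart-seq2 dKO. Hist1h4k held 17 and 15 counts in Smart-seq2 dKO and Hist1h3c 36 and 6. Hist1h3b held 6 and 0 counts in Smart-seq2 WT and 51 and 24 in dKO, and Hist1h3f held 1 and 0 against 12 and 26. In bulk all 6 had a lower mean count in dKO than in WT. No group has the 4 samples needed to look for single outlying libraries.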

How the results depend on the processing

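Replicate numbers did not pair the libraries: deviations of same-numbered libraries correlated at 0.08, -0.22 and -0.12 in bulk and 0.02 and 0.02 in Smart-seq2. With the replicate block, 0 of the 67 genes were called in bulk (4.17% of all genes higher and 1.56% lower), 2 for the difference between assays (9.62% and 2.09%) and 0 in Smart-seq2, as without it, and the Smart-seq2 log2 changes of Hist1h1a (0.01) and Hist1h2bc (0.10) turned positive.

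Of the 67 genes, 2 were called in bulk by adjusted p alone (10.6% of all genes higher and 8.51% lower) and 3 without a filter on low counts (5.95% and 1.26%), and 3 in Smart-seq2 by DESeq2 (7.33% and 3.93%). With single libraries left out, calls ranged from 0 to 7 in bulk, 0 to 25 in Smart-seq2, 22 to 42 between the assays in WT and 3 to 17 for the difference between assays. The removals that gave the most calls called 6.18% of all genes higher and 2.36% lower in bulk, 29.5% and 12% in Smart-seq2, 25.1% and 42.1% in WT, and 30.2% and 11.4% for the difference. The Smart-seq2 change of Hist1h2bj was -0.051 with library totals. Over libraries left out, log2 changes crossed 0 for Hist2h2aa2 in bulk (-0.49 to 0.16) and in Smart-seq2 for Hist1h2bj (-0.95 to 2.54), Hist2h3c2 (-0.575 to 0.034), Hist1h4n (-0.32 to 0.89), Hist1h1a (-0.24 to 0.29) and Hist1h2bc (-1.45 to 1.76). Summed levels in dKO were 76.36% of WT in bulk as shares of library totals, and 73.28% and 60.86% with TMM in bulk and Smart-seq2. At a minimum of 5 TPM, 16 genes were expressed in bulk WT and 8 in bulk dKO. Library totals in place of TMM moved the median of all genes from 0.15 to -0.01 in Smart-seq2.

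For promoter peaks at P7, a q of at most 0.01 left 0 genes for H4R3me2a, H4R3me2s, H4R3me1, H3R2me2a and H3R8me2a, and 1 for H3K27ac, where 0.606%, 1.32%, 0.487%, 0.328%, 0.797% and 9.9% of all genes passed. At P14 it left 9 for H4R3me2a, 0 for H4R3me2s, 7 for H4R3me1, 10 for H3R2me2a and 19 for H3R8me2a, where all genes stood at 17.9%, 6.18%, 9.34%, 25.6% and 10.8%. Counting 1 list as enough gave 23, 30, 23, 27, 34 and 54 genes at P7 for those marks in the order given first (29.9%, 39.6%, 26.6%, 27.4%, 24.7% and 42.8% of all genes), 18 for H4R3me2s in dKO (30.4%), and at P14 39 for H4R3me1 (46.5%) and 59 for H3R2me2a (62%). A window of 500 bp gave 1 for H4R3me1 (4.93% of all), 4 for H3R8me2a (5.27%) and 11 for H3K27ac (23.3%) at P7, and 3000 bp gave 1 for H4R3me2s in dKO (9.82%) and 3 for H3R2me2a (11%). Lists of equal length gave 19 for H4R3me2a (27.3%) and 10 for H3R2me2a (27%) at P14. With single lists left out, P7 counts were 0 to 2 for H4R3me2a, 16 to 23 for H4R3me2s, 8 to 10 in dKO, 9 to 16 for H4R3me1, 13 to 15 for H3R2me2a, 21 in either case for H3R8me2a and 33 to 45 for H3K27ac. All genes then stood at 4.78% to 5.21%, 26.5% to 26.7%, 16.2% to 20.5%, 14.8% to 18.5%, 16.7% to 17.5%, 15.5% to 16.1% and 33.5% to 36.8%. P14 counts were 23 to 27 for H4R3me2a, 17 to 23 for H4R3me2s and 27 to 30 for H4R3me1, beside 28.8% to 32.6%, 17.2% to 20.8% and 34.9% to 36.9% of all genes. Where 2 lists form a group, leaving out 1 leaves the other alone, which raises the count by construction.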
